A study of Ovis aries with 24 samples.

Results

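Transcripts of complement and blood coagulation genes were followed in preterm lambs, in liver and in periventricular white matter (PVWM), a brain region next to the fluid-filled lateral ventricles. The set is 41 genes named by symbol, of which 40 were found among the 27716 entries of each count table. C1R was found through its locus identifier LOC101107430, which the sheep RefSeq gene table (assembly ARS-UI_Ramb_v3.0) names, and C8G was not matched to an entry. All 40 passed the low-count filter in liver, where 16824 genes were tested, and 17 of the 40 passed in PVWM, where 18616 genes were tested.

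Complement is a cascade of plasma proteases and binding proteins. The classical and lectin routes start it, C3 and factor B amplify it, the terminal components build a membrane pore, and regulators hold it in check. Coagulation runs through a second set of plasma proteases to thrombin, which turns fibrinogen into fibrin, and anticoagulants and the plasmin system limit and dissolve the clot. Hepatocytes make most of these proteins, and fibrinogen, C3 and several others are classical acute phase proteins, whose synthesis follows cytokines and glucocorticoids.

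RNA was sequenced after poly-A selection from 4 animals per group and tissue, and 11 animals gave both tissues. The unventilated group received no ventilation, surfactant or budesonide, and its lambs were of 127 or 128 days of gestation. Animals 057 and 058 were males of 127 days. Those of 128 days were labelled female (059 in liver, 060 in PVWM) or had no sex label (060 in liver, 061 in PVWM). The surfactant group was ventilated and given intratracheal poractant alpha, a lung surfactant extract, at 2.5 mL/kg. Lambs of the budesonide group were also ventilated and received that surfactant dose together with 0.25 mg/kg of budesonide, a glucocorticoid. Ventilated lambs were females of 126 days, except 1 male of 127 days in each ventilated group (animal 007 with surfactant, animal 054 with budesonide). Within each group, lambs of different ages thus also differed in labelled sex. The surfactant group differs from the unventilated group by ventilation and surfactant together, so the effects of these cannot be told apart, and gestational age nearly coincides with ventilation.

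Libraries held 16.1 to 23.2 M (1e6) counts in liver and 14.9 to 17.5 M in PVWM. Levels are counts per M (CPM) after edgeR library scaling, given as mean ± SD over 4 animals. Changes are log2 differences ± SE, and a gene is called when its edgeR quasi-likelihood p, adjusted by Benjamini-Hochberg over all genes tested, is under 0.05. Library values are listed for unventilated livers in the order of animals 057, 058, 059 and 060, for surfactant livers as 007, 032, 049 and 051, and for budesonide livers as 031, 048, 050 and 054. The livers carried high levels of hepatocyte markers, with a summed level of 155000 to 263000 CPM for the 11 of 12 markers found. The same sum was 105 to 263 CPM in PVWM. In bulk tissue, fewer cells of a type and less RNA per cell cannot be told apart.

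Fibrinogen transcripts held a share of the liver libraries close to that of all other members in unventilated lambs and most of the set's counts in both ventilated groups. All members together held 4.95 ± 0.338% of the counts in unventilated livers, 9.26 ± 1.10% with surfactant and 9.39 ± 1.04% with budesonide. The 3 fibrinogen genes held 2.58 ± 0.215%, 7.10 ± 1.17% and 7.71 ± 0.978% of the counts in the same groups. The other members held 2.37 ± 0.267%, 2.16 ± 0.260% and 1.68 ± 0.0975%. Every ventilated liver lay above every unventilated liver in the fibrinogen share, and every budesonide liver lay below every surfactant liver in the share of the other members, 1.54 to 1.76% against 1.91 to 2.40%. In PVWM the whole set held 0.0209 to 0.0461% of a library.

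**Figure D1:**
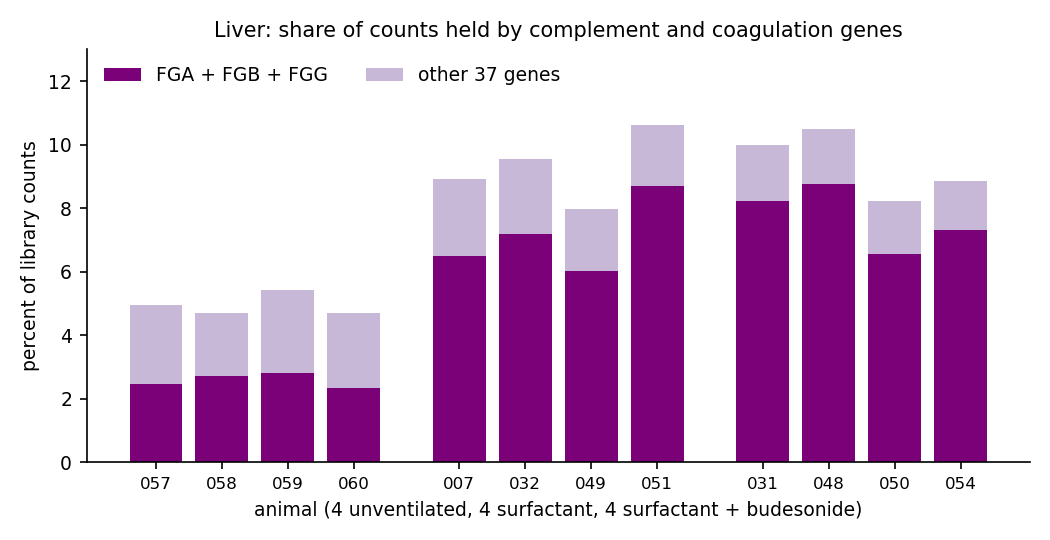
Percent of each liver library's counts held by the fibrinogen genes FGA, FGB and FGG (dark) and by the other members of the set (light), 1 bar per animal. Fibrinogen held 2.35 to 2.81% in the 4 unventilated livers and 6.02 to 8.75% in the 8 ventilated livers.

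The first comparison, surfactant against unventilated, asks what ventilation with surfactant changed. In liver 12 of the 40 members rose and 4 fell, which is 40% of members beside 41.1% of all genes tested, so the number called was close to the background. The 12 were C3, CFB, CFP, C7, C4BPA, C4BPB, SERPING1, F5, FGA, FGB, FGG and SERPINF2, and the 4 were F11, KLKB1, F7 and F13B. By direction, 21.6% of all genes were called higher and 19.5% lower. The median log2 change of the members was 0.16, beside -0.02 for all genes tested. A fit with gestational age as a covariate left 5 of the 16 calls, C4BPA, C7 and the fibrinogen genes, and in that fit 1398 of the 16824 genes were called, against 6911 without it.

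FGA, FGB and FGG encode the 3 chains of fibrinogen and lie side by side in the RefSeq assembly. FGA was 9761, 10280, 12250 and 9033 CPM in unventilated livers, 27700, 36090, 33840 and 47060 CPM with surfactant, and 36200, 40340, 29650 and 33800 CPM with budesonide. FGB followed at 7186, 7822, 9133 and 7037 CPM, then 22180, 24430, 23270 and 35260 CPM, then 28100, 30590, 24830 and 24800 CPM. For FGG the values were 4631, 4687, 5733 and 4330 CPM, then 13650, 16020, 14000 and 21480 CPM, then 18490, 18460, 14200 and 16950 CPM. Surfactant animal 051 was the highest liver for all 3 chains, animal 059 was the highest of the unventilated group, and no ventilated liver reached the unventilated range.

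With surfactant, FGA rose 3.50-fold from 10330 ± 1379 to 36170 ± 8079 CPM (log2 1.81 ± 0.19, edgeR adjusted p = 3.34e-05). FGB rose 3.37-fold from 7795 ± 955 to 26280 ± 6055 CPM (log2 1.75 ± 0.18, edgeR adjusted p = 3.21e-05). FGG rose by a log2 of 1.75 ± 0.18 (edgeR adjusted p = 3.39e-05). The 3 chains kept nearly constant proportions of the fibrinogen CPM over the 12 livers: FGA made up 43.2 to 47.6%, FGB 31.9 to 36.2% and FGG 19.7 to 22.4% of it. These are proportions of counts, which also depend on transcript length.

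Factor XIII cross-links fibrin, and neither its catalytic subunit F13A1 nor its carrier subunit F13B was called higher. F13B was 291, 235, 371 and 293 CPM in unventilated livers, 243, 197, 167 and 172 CPM with surfactant, and 144, 114, 180 and 122 CPM with budesonide. It fell with surfactant (log2 -0.61 ± 0.19, edgeR adjusted p = 0.0229), with the surfactant animal 007 inside the unventilated range. F13A1 had a log2 change of -0.36 (edgeR adjusted p = 0.291).

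**Figure D2:**
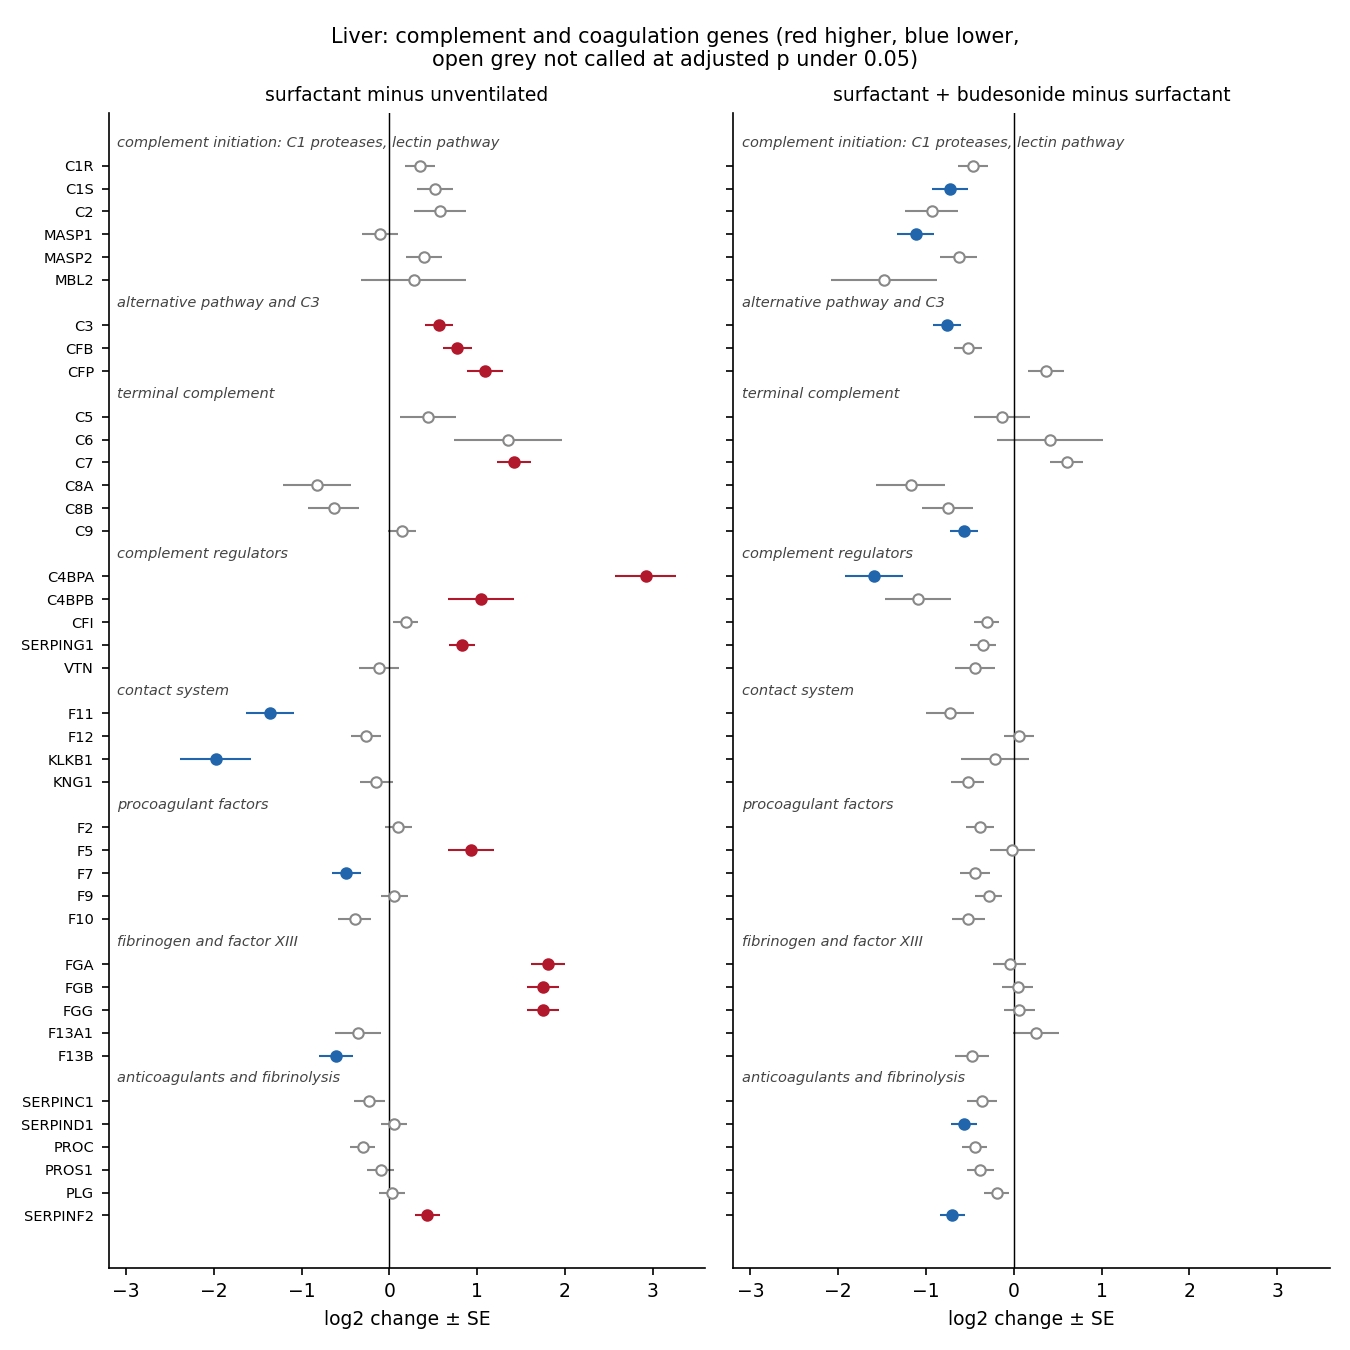
Log2 changes with their SE for the 40 members in liver, grouped by role, for surfactant minus unventilated (left) and budesonide minus surfactant (right), with genes called higher in red, called lower in blue and not called in open grey. Fibrinogen and C4BPA stand to the right in the left panel, and most members lie left of 0 in the right panel.

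Among the regulators, C4BPA encodes the alpha chain of the C4b-binding protein, an inhibitor of the classical and lectin C3 convertase. It was 88.5, 89.4, 154 and 88.9 CPM in unventilated livers, 473, 935, 688 and 1088 CPM with surfactant, and 231, 325, 137 and 361 CPM with budesonide. All surfactant livers lay above all others, and the lowest budesonide liver, animal 050, lay below unventilated animal 059. C4BPA rose 7.56-fold with surfactant, from 105 ± 32.8 to 796 ± 271 CPM (log2 2.92 ± 0.35, edgeR adjusted p = 8.86e-05), the greatest log2 change of any member in this comparison.

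C4BPB, the neighbouring gene for the beta chain, was low throughout at 5.49, 3.70, 11.1 and 6.07 CPM in unventilated livers, then 9.01, 17.1, 12.3 and 15.8 CPM, then 3.14, 5.91, 6.28 and 10.1 CPM. Its ranges overlapped in every pair of groups, and its rise with surfactant was a log2 of 1.04 ± 0.37 (edgeR adjusted p = 0.0405). That call was lost in 10 of 19 alternatives. SERPING1, the C1 inhibitor, which blocks the C1 proteases, plasma kallikrein and factor XIIa, was 451, 442, 325 and 434 CPM in unventilated livers, 625, 820, 778 and 711 CPM with surfactant, and 513, 633, 569 and 582 CPM with budesonide. Ventilated livers of both groups lay above the unventilated range. SERPING1 rose with surfactant by a log2 of 0.83 ± 0.15 (edgeR adjusted p = 0.00122). The protease CFI, which cleaves C3b and C4b, and VTN, vitronectin, which binds the forming pore, had log2 changes of 0.19 and -0.12 and were not called (edgeR adjusted p = 0.317 and 0.700).

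All 3 genes of the alternative pathway and C3 were called higher with surfactant. C3, the central component that all routes cleave, was 452, 415, 582 and 443 CPM in unventilated livers, 659, 750, 747 and 648 CPM with surfactant, and 385, 437, 339 and 495 CPM with budesonide. CFB, the protease of the alternative convertase, was 1100, 832, 1269 and 1273 CPM, then 1867, 1890, 1929 and 1968 CPM, then 1314, 1545, 1315 and 1154 CPM. In both genes the surfactant livers stood above both other groups with no overlap, and the budesonide and unventilated ranges overlapped. C3 rose by a log2 of 0.57 ± 0.16 (edgeR adjusted p = 0.0136) and CFB by 0.77 ± 0.16 (edgeR adjusted p = 0.00258).

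CFP, properdin, which stabilises the alternative convertase and is made mainly by neutrophils and other myeloid cells, was 23.3, 25.3, 22.9 and 18.3 CPM in unventilated livers, 32.7, 45.5, 45.3 and 67.7 CPM with surfactant, and 60.3, 58.3, 52.4 and 75.8 CPM with budesonide. All ventilated livers lay above the unventilated range, and CFP rose with surfactant by a log2 of 1.09 ± 0.21 (edgeR adjusted p = 0.00157). Of the 8 neutrophil markers tested, 7 were also called higher in this comparison, and their summed level was 27.3 to 89.3 CPM in unventilated, 93.7 to 286 CPM in surfactant and 82.3 to 134 CPM in budesonide livers. Macrophage and Kupffer cell markers summed to 374 to 431 CPM in unventilated, 492 to 630 CPM in surfactant and 506 to 557 CPM in budesonide livers. Of the 9 tested, 4 were called higher and 1 lower with surfactant. The part of neutrophils and macrophages in the CFP result was not tested.

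Of the 6 terminal components found, C7 was called higher and 5 were not called. C7, which joins the growing membrane pore, was 27.2, 22.2, 31.1 and 23.2 CPM in unventilated livers, 48.8, 62.8, 84.1 and 81.8 CPM with surfactant, and 98.9, 118, 90.4 and 114 CPM with budesonide. The 3 groups did not overlap, in the order unventilated, surfactant, budesonide, and C7 rose with surfactant by a log2 of 1.42 ± 0.19 (edgeR adjusted p = 0.000174). Summed markers of fibroblasts, stellate and mural cells, which can also express C7, were 827 to 1530 CPM in unventilated, 1450 to 1980 CPM in surfactant and 1340 to 2040 CPM in budesonide livers, and their part was not tested. C6 varied widely, from 12.8 to 61.3 CPM in unventilated and 19.8 to 171 CPM in surfactant livers, and was not called (log2 1.35 ± 0.61, edgeR adjusted p = 0.0940). The neighbouring genes C8A and C8B, which encode chains of the eighth component, had log2 changes of -0.83 and -0.64 (edgeR adjusted p = 0.103 and 0.0917). C9, which forms the wall of the pore, was 902, 741, 1084 and 823 CPM in unventilated livers, 1133, 1021, 862 and 907 CPM with surfactant, and 748, 669, 631 and 606 CPM with budesonide. It was not called here (log2 0.14 ± 0.16, edgeR adjusted p = 0.490), and the surfactant and unventilated ranges overlapped. C5 had a log2 change of 0.44 (edgeR adjusted p = 0.283).

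Of the 6 genes that start the classical and lectin pathways, 0 were called by edgeR with surfactant, and 1 had an unadjusted p under 0.05 and was called higher by DESeq2. This was C1S, a protease of the C1 complex, which was 450, 312, 353 and 313 CPM in unventilated livers, 551, 670, 437 and 390 CPM with surfactant, and 291, 374, 246 and 325 CPM with budesonide (log2 0.52 ± 0.20, edgeR adjusted p = 0.0561 for surfactant). The surfactant and unventilated ranges overlapped. C2, MASP2 and C1R had log2 changes of 0.57, 0.40 and 0.35 with surfactant (edgeR adjusted p = 0.140, 0.145 and 0.112). C2 and MASP2 were each called higher in 1 of 19 alternatives, and C1R in 0. MBL2, mannose-binding lectin, spread over 101 to 427 CPM in unventilated and 151 to 389 CPM in surfactant livers (log2 0.28 ± 0.60, edgeR adjusted p = 0.735). MASP1, a protease that mannose-binding lectin activates, was 121, 94.0, 120 and 103 CPM, then 137, 113, 93.1 and 62.9 CPM, then 40.5, 56.2, 45.0 and 45.5 CPM. Its change with surfactant was -0.11 ± 0.21 (edgeR adjusted p = 0.712), and its budesonide livers lay below every other liver.

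The contact system starts coagulation at surfaces and releases bradykinin, and 2 of its 4 genes fell. KLKB1, plasma prekallikrein, was 112, 90.3, 101 and 73.5 CPM in unventilated livers, 41.4, 14.6, 23.6 and 15.8 CPM with surfactant, and 21.8, 7.74, 31.7 and 21.0 CPM with budesonide. F11, the protease that activates factor IX, was 60.9, 33.1, 85.9 and 58.1 CPM, then 26.6, 28.9, 18.4 and 18.8 CPM, then 10.3, 15.4, 17.6 and 12.7 CPM. For KLKB1 and F11 every ventilated liver lay below the unventilated range, and for F11 every budesonide liver also lay below every surfactant liver. KLKB1 fell 3.95-fold with surfactant (log2 -1.98 ± 0.40, edgeR adjusted p = 0.00222), and F11 fell 2.57-fold (log2 -1.36 ± 0.27, edgeR adjusted p = 0.00206). KNG1, the kininogen that carries bradykinin, and F12, the first protease of the system, had log2 changes of -0.15 and -0.27 and were not called (edgeR adjusted p = 0.555 and 0.238).

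Of the 5 procoagulant factors, 1 rose and 1 fell. F5, the cofactor of the prothrombin-activating complex, was 323, 279, 342 and 290 CPM in unventilated livers, 427, 665, 434 and 823 CPM with surfactant, and 601, 856, 432 and 433 CPM with budesonide. It rose with surfactant by a log2 of 0.93 ± 0.26 (edgeR adjusted p = 0.0131). F7, the partner of tissue factor, was 46.0, 43.0, 52.5 and 45.5 CPM, then 34.8, 34.5, 33.6 and 30.3 CPM, then 25.9, 17.4, 31.4 and 23.2 CPM, and fell with surfactant (log2 -0.49 ± 0.17, edgeR adjusted p = 0.0309). All ventilated livers were above the unventilated range for F5 and below it for F7. Without unventilated animal 059 neither F7 nor F13B was called (edgeR adjusted p = 0.0796 and 0.0685), which leaves 2 of the 4 genes called lower. In that fit 35% of all genes were called in either direction, against 41.1% with animal 059. F2, prothrombin, was 924, 771, 1032 and 801 CPM in unventilated livers, 890, 958, 1112 and 831 CPM with surfactant, and 649, 666, 870 and 709 CPM with budesonide, with overlapping ranges in every pair and no call (log2 0.10 ± 0.16, edgeR adjusted p = 0.630, with surfactant). F9 and F10, the proteases that precede thrombin, had log2 changes of 0.05 and -0.40 (edgeR adjusted p = 0.802 and 0.108).

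Of the 6 anticoagulant and fibrinolysis members, 5 were not called with surfactant. SERPINC1, antithrombin, was 2681, 2241, 3692 and 2675 CPM in unventilated livers, 2438, 2549, 2332 and 2315 CPM with surfactant, and 1753, 1840, 2310 and 1598 CPM with budesonide (log2 -0.23 ± 0.18, edgeR adjusted p = 0.314, with surfactant). PLG, plasminogen, was 2017, 1672, 2105 and 1719 CPM, then 2154, 1950, 1785 and 1776 CPM, then 1942, 1618, 1649 and 1481 CPM (log2 0.03 ± 0.15, edgeR adjusted p = 0.892). The surfactant and unventilated ranges overlapped for both. SERPINF2, the main inhibitor of plasmin, was 980, 850, 1170 and 1005 CPM in unventilated livers, 1154, 1383, 1450 and 1418 CPM with surfactant, and 814, 868, 771 and 872 CPM with budesonide. It rose with surfactant by a log2 of 0.43 ± 0.14 (edgeR adjusted p = 0.0283), a call lost in 8 of 19 alternatives, with animal 007 overlapping the unventilated group. SERPIND1, PROC and PROS1 had log2 changes of 0.05, -0.30 and -0.10 and were not called (edgeR adjusted p = 0.806, 0.106 and 0.628).

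The surfactant animal 007, the male of 127 days, was the surfactant liver nearest to the unventilated group for 14 of the 16 called members. Without it 12 members were called higher and 4 lower, while 47.4% of all genes were called in either direction, against 41.1% with it. Unventilated animal 059 was nearest to the surfactant group for 9 of the 16.

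**Figure D3:**
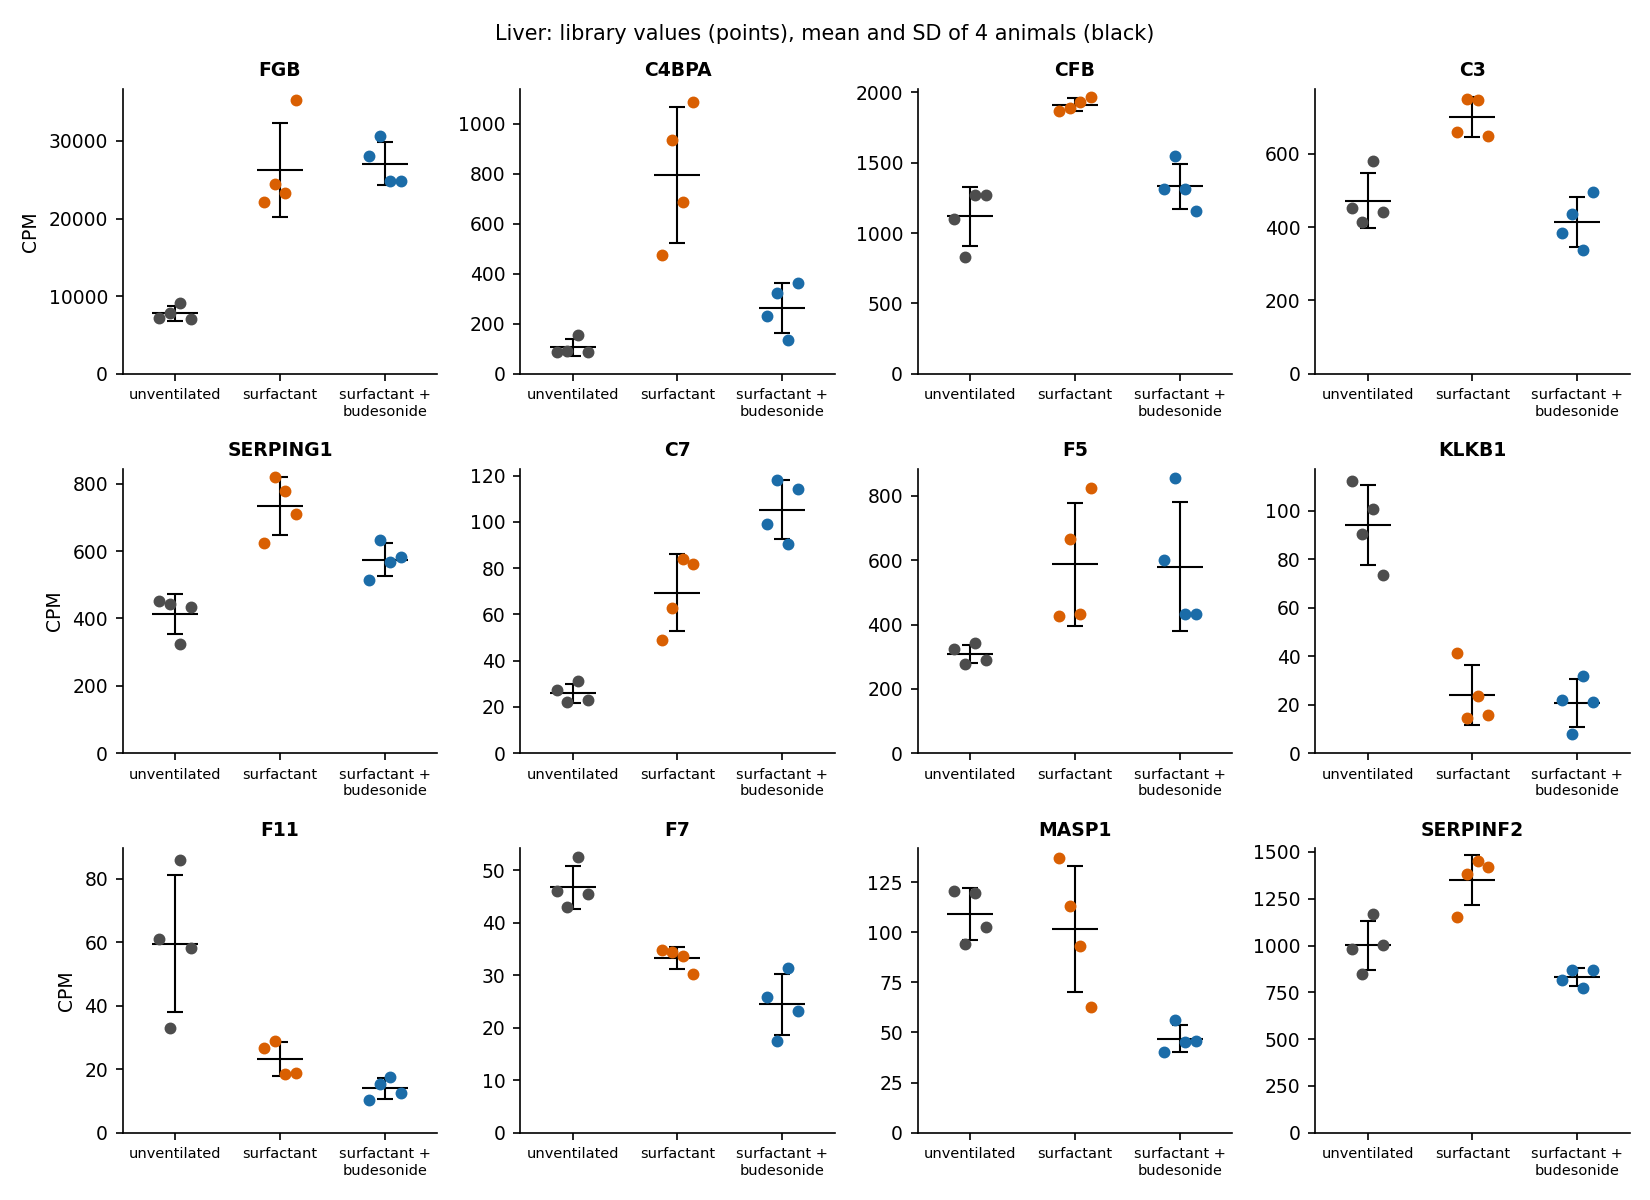
CPM of 12 members in each of the 12 livers (points), with the mean and SD of each group of 4 (black), on linear axes that start at 0. FGB is high in both ventilated groups, CFB and C3 are highest with surfactant, C7 steps up over the 3 groups, and MASP1 is low with budesonide.

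The second comparison, budesonide against surfactant, asks what the glucocorticoid added. In liver 7 of the 40 members fell and 0 rose, which is 17.5% of members beside 11.9% of all genes tested (7.85% called lower and 4.01% higher). The 7 were C4BPA, MASP1, C3, C1S, SERPINF2, SERPIND1 and C9. The log2 change was below 0 for 33 of the 40 members and for 50.8% of all genes, and the median was -0.44 for the members and -0.01 for all genes. DESeq2 called 15 members lower and 1, C7, higher, beside 17.1% of the 18324 genes it tested. The edgeR count of lower members was 4 without budesonide animal 031 and 12 without surfactant animal 051, while the share of all genes called was 5.89% and 16.6% in these fits. Hepatocyte markers had a median log2 change of -0.26 over the 11 tested, with 0 called by edgeR and 3 at an unadjusted p under 0.05, and their summed level was 208000 to 251000 CPM with surfactant and 155000 to 227000 CPM with budesonide. Erythroid markers, present in fetal liver, were above 0 for 6 of 6 (median 0.94, 0 called by edgeR and 3 at an unadjusted p under 0.05), with sums of 729 to 1510 CPM with surfactant and 1170 to 2950 CPM with budesonide. Of 9 endothelial markers 4 were called lower, with sums of 724 to 931 and 714 to 886 CPM. The part of these cell types in the members' values was not tested.

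C4BPA fell 3.02-fold with budesonide, from 796 ± 271 to 264 ± 101 CPM (log2 -1.60 ± 0.33, edgeR adjusted p = 0.0113). MASP1 fell 2.17-fold, from 102 ± 31.4 to 46.8 ± 6.69 CPM (log2 -1.12 ± 0.21, edgeR adjusted p = 0.00743). C3 fell 1.69-fold, from 701 ± 55.1 to 414 ± 67.4 CPM (log2 -0.76 ± 0.16, edgeR adjusted p = 0.0117). The 2 groups did not overlap for 18 of the 40 members, among them the 7 called lower. Ranges and calls come from the same values, and the share of all genes without overlap was not computed. SERPINF2 also fell (log2 -0.70 ± 0.14, edgeR adjusted p = 0.00999), and these 4 calls held in all 19 alternatives.

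The other called genes were C1S (log2 -0.73 ± 0.20, edgeR adjusted p = 0.0368), C9 (-0.56 ± 0.16, edgeR adjusted p = 0.0368) and SERPIND1, heparin cofactor, an inhibitor of thrombin (-0.57 ± 0.15, edgeR adjusted p = 0.0302). SERPIND1 was 734, 592, 814 and 664 CPM in unventilated livers, 670, 651, 811 and 774 CPM with surfactant, and 538, 539, 437 and 447 CPM with budesonide, so that every budesonide liver was below every other liver. All 3 of these calls were lost without budesonide animal 031 (edgeR adjusted p = 0.0971 for C1S, 0.0599 for C9 and 0.0575 for SERPIND1). Over the 19 alternatives the call was lost in 6 for C1S, 10 for C9 and 6 for SERPIND1.

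By role, all 6 initiation genes, all 5 regulators, all 5 procoagulant factors and all 6 anticoagulant and fibrinolysis genes had a log2 change below 0, with medians of -0.83, -0.44, -0.39 and -0.41. In the terminal group C8A was -1.17, C8B -0.75, C9 -0.56 and C5 -0.13, while C7 was 0.60 and C6 0.41. C7 missed the threshold (edgeR adjusted p = 0.0534), as did C8A (edgeR adjusted p = 0.0681). CFB stood at 1332 ± 161 against 1913 ± 44.4 CPM without overlap, and also missed it (log2 -0.52, edgeR adjusted p = 0.0524). MBL2 was 103, 48.4, 36.1 and 240 CPM with budesonide, so that animal 054 lay inside the surfactant range, and was not called (log2 -1.48 ± 0.61, edgeR adjusted p = 0.125). It was called lower without animal 054 (log2 -2.25, edgeR adjusted p = 0.0314) and with age as a covariate (log2 -1.84, edgeR adjusted p = 0.0223).

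The fibrinogen genes lay close to 0 in this comparison. Their log2 change was -0.05 ± 0.18 for FGA, 0.04 ± 0.18 for FGB and 0.06 ± 0.18 for FGG, and none was called (edgeR adjusted p = 0.886, 0.893 and 0.838). F5 was also close to 0 at -0.02 ± 0.26 (edgeR adjusted p = 0.971), and KLKB1 was -0.21 ± 0.39 (edgeR adjusted p = 0.746). Among procoagulant and anticoagulant genes, F2 was -0.39, SERPINC1 -0.36, PROC -0.44 and PLG -0.20, none of them called (edgeR adjusted p = 0.123, 0.188, 0.0613 and 0.393).

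The third comparison, budesonide against unventilated, shares its libraries with the other 2, so its values are given beside them and not as separate evidence. In liver 9 members were higher and 14 lower, 57.5% of members beside 47.0% of all genes tested (23.3% higher and 23.7% lower). The fit with gestational age as a covariate left 5 higher (CFP, C7 and the fibrinogen genes) and 3 lower (F11, KLKB1 and F7), with 2958 genes called in all against 7903 without age. The median log2 change was -0.23, beside 0.00 for all genes. Of the 11 hepatocyte markers 3 were called lower and 10 were below 0 (median -0.33), with sums of 201000 to 263000 CPM in unventilated and 155000 to 227000 CPM in budesonide livers, and their part was not tested. The higher members were CFP, C6, C7, C4BPA, SERPING1, F5 and the fibrinogen genes. Those lower were MASP1, C8A, C8B, C9, F11, KLKB1, KNG1, F7, F10, F13B, SERPINC1, SERPIND1, PROC and PROS1. The call of C6 (edgeR adjusted p = 0.0333) was lost in 6 of 19 alternatives, and that of C9 (edgeR adjusted p = 0.0430) in 9 of 19.

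Relative to unventilated livers, FGA, FGB and FGG were higher with budesonide by log2 1.76, 1.80 and 1.81, as against 1.81, 1.75 and 1.75 with surfactant. C4BPA was higher by 1.32 ± 0.33 with budesonide (edgeR adjusted p = 0.00588), as against 2.92 with surfactant, and with age as a covariate it was not called (log2 1.53, edgeR adjusted p = 0.0578). C3 and CFB were at -0.19 and 0.25 and not called (edgeR adjusted p = 0.346 and 0.213). C7 rose 4.07-fold with budesonide, to 105 ± 12.9 CPM (log2 2.02 ± 0.19, edgeR adjusted p = 1.13e-05).

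Several factors were lowest in the budesonide group. C8A was 183, 109, 229 and 81.8 CPM in unventilated livers, 119, 62.3, 93.0 and 64.8 CPM with surfactant, and 51.2, 45.1, 15.1 and 38.8 CPM with budesonide, with all budesonide livers below all others. It fell 4.01-fold against unventilated livers (SE 0.40 on the log2 scale, edgeR adjusted p = 0.00147), and its neighbour C8B fell 2.62-fold (log2 -1.39 ± 0.29, edgeR adjusted p = 0.00196). F10 and F7, also neighbours, both fell (log2 -0.91 ± 0.19 and -0.93 ± 0.17, edgeR adjusted p = 0.00182 and 0.000676). PROC, the anticoagulant protease precursor protein C, also fell (log2 -0.75 ± 0.14, edgeR adjusted p = 0.00113), as did SERPINC1 (log2 -0.59 ± 0.18, edgeR adjusted p = 0.0150). With age as a covariate C8A, C8B, F10, PROC and SERPINC1 were not called (edgeR adjusted p = 0.0723, 0.0707, 0.191, 0.0871 and 0.270). Budesonide animal 050 was the liver nearest to the unventilated group for 15 of the 23 called members.

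In PVWM the set was sparse. A mean of 1 CPM or more was reached by 15 members: C1R, C1S, MASP1, MASP2, C3, CFB, CFP, C7, CFI, SERPING1, F5, F10, FGB, F13A1 and PROS1. The 23 members that did not pass the filter had mean levels up to 0.498 CPM. FGA, F13B and MBL2 had no counts in any of the 12 libraries, which allows up to 0.0153 CPM by a limit of 3 counts over the 12 libraries, for counting error only. FGG had 5 counts in all, whereas FGB had 953 counts and ranged from 0.899 to 14.5 CPM. Of the 11 hepatocyte markers, APOA2, APOB and SERPINA1 were at 0 in the unventilated PVWM libraries, APOA2 was at 0 with surfactant and none was at 0 with budesonide. The summed level of all 11 was 133 to 263, 105 to 198 and 106 to 159 CPM in these groups.

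Of the 17 members tested in PVWM, CFP was the single gene called. It was 2.52, 3.02, 2.76 and 1.98 CPM in unventilated animals 057, 058, 060 and 061, 3.52, 4.04, 7.28 and 6.30 CPM in surfactant animals 007, 032, 049 and 051, and 6.85, 5.56, 6.52 and 5.91 CPM in budesonide animals 031, 048, 050 and 054. Both ventilated groups lay wholly above the unventilated group. With surfactant CFP rose by a log2 of 1.04 ± 0.24 (edgeR adjusted p = 0.0411), 1 of 17 members beside 2.05% of all genes tested (1.35% higher and 0.698% lower). That call was lost without any 1 of 10 of the 12 libraries (edgeR adjusted p up to 0.138, without unventilated animal 061) and held without animal 007 or animal 032. Against unventilated lambs, the budesonide group had CFP higher by 1.27 ± 0.24 (edgeR adjusted p = 0.00461), 1 of 17 beside 8.06% of all genes (4.35% higher and 3.71% lower). With gestational age as a covariate CFP was called in neither comparison (log2 0.61 and 0.87, edgeR adjusted p = 0.872 and 0.272). Neutrophil markers summed to 2.69 to 4.48 CPM in unventilated, 2.85 to 12.2 CPM in surfactant and 3.48 to 5.31 CPM in budesonide PVWM. Macrophage markers summed to 92.1 to 102, 98 to 162 and 88.7 to 115 CPM in the same groups. Of the 5 macrophage markers tested, 1 was called higher and 0 lower with surfactant. Against unventilated PVWM, 3 were called higher and 1 lower with budesonide. The part of these cell types was not tested.

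Between budesonide and surfactant 0 of the 17 were called in PVWM by edgeR or DESeq2, beside 0.978% of all genes by edgeR (0.591% higher and 0.387% lower), and 1 had an unadjusted edgeR p under 0.05. This gene was C3, at 40.2, 33.3, 27.7 and 31.3 CPM in unventilated, 33.9, 32.6, 42.7 and 36.6 CPM in surfactant and 32.9, 24.4, 31.9 and 28.4 CPM in budesonide libraries (log2 -0.31 ± 0.13, edgeR adjusted p = 0.372). The budesonide animal 031 reached into the surfactant range. SERPING1 was 51.4, 45.3, 42.9 and 46.7 CPM, then 50.6, 35.4, 55.1 and 34.2 CPM, then 38.4, 37.2, 42.7 and 34.3 CPM. C1R and C1S, the proteases of the C1 complex, stayed at 10.7 to 26.4 and 7.97 to 21.8 CPM over all 12 libraries.

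A few PVWM libraries stood apart in several members. C7 was 111 CPM in surfactant animal 049 and 158 CPM in budesonide animal 031, against 9.46 to 26.8 CPM and 43.7 to 59.6 CPM in the others of their groups. Animal 049 was also the highest of its group for CFB and PROS1, and animal 031 for FGB. Summed fibroblast, stellate and mural cell markers were 1770 CPM in animal 049 and 1530 CPM in animal 031, the highest of their groups, whose lowest values were 700 and 1070 CPM. Animal 049 was also the highest of its group for endothelial (320 CPM, others 186 to 240), macrophage (162 CPM, others 98 to 113) and neutrophil markers (12.2 CPM, others 2.85 to 10.3). Animal 031 was not the highest of its group for any of these. The part of these cells was not tested. C7 was not called in PVWM in any comparison with all 12 libraries (log2 1.82 ± 0.67, edgeR adjusted p = 0.131, for budesonide against unventilated), and was called there without animal 049 (log2 1.81, edgeR adjusted p = 0.0231).

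**Figure D4:**
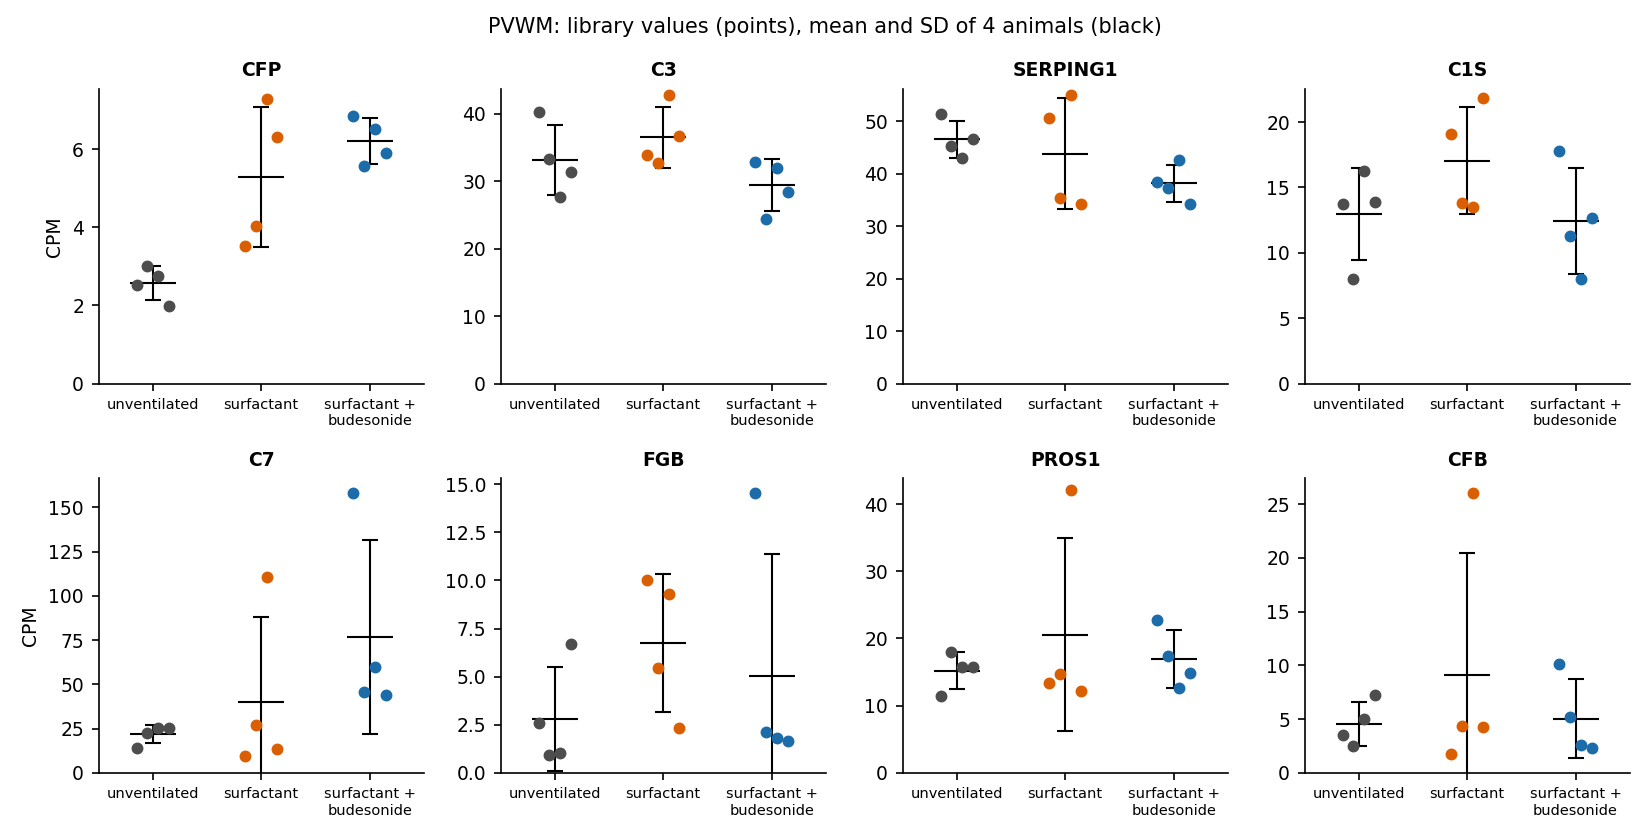
CPM of 8 members in each of the 12 PVWM libraries (points), with the mean and SD of each group of 4 (black), on linear axes that start at 0, where the lower ends of some SD bars are not drawn below 0. CFP lies higher in both ventilated groups, and 1 surfactant and 1 budesonide library stand far above the rest for C7.

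The change in liver was then tested against the change in PVWM for the 15 members with at least 1 CPM in both tissues. Each difference comes from 1 fit of both tissues with its own scaling. It therefore need not equal the liver change minus the PVWM change of the separate fits, which are printed beside it. For surfactant against unventilated 1 of the 15 was called, beside 25.8% of all 20010 genes (14.6% with the liver change higher and 11.2% lower). SERPING1 had a liver change higher than the PVWM change by a log2 of 0.99 ± 0.22 (edgeR adjusted p = 0.00212), with 0.83 in liver and -0.09 in PVWM. C3 had 0.57 and 0.14, a difference of 0.51 ± 0.20 that missed the threshold (edgeR adjusted p = 0.0663). CFP had changes of 1.09 and 1.04, a difference of 0.13 ± 0.32 (edgeR adjusted p = 0.822). For budesonide against surfactant 0 of the 15 were called by edgeR, beside 3.41% of all genes (1.41% with the liver change higher), 3 had an unadjusted p under 0.05, and the lowest adjusted p was that of MASP2 (difference -0.62 ± 0.24, edgeR adjusted p = 0.151).

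The pathway genes outside the set, receptors, cell-bound regulators and fibrinolysis genes among them, were drawn from a list of 54, of which 49 were found and tested in liver. With surfactant 18 of the 49 were higher and 4 lower in liver, 44.9% beside the 41.1% above. CD46, a membrane cofactor for the cleavage of C3b, stood at 62.0 ± 3.36 CPM in unventilated and 539 ± 212 CPM in surfactant livers (log2 3.12 ± 0.31, edgeR adjusted p = 2.47e-05). ANXA2, a surface partner of plasminogen activation, rose by 2.90 ± 0.35 (edgeR adjusted p = 8.86e-05), and SERPINA10, the inhibitor of activated factor X that works with protein Z, by 1.81 ± 0.25 (edgeR adjusted p = 0.000233). Lower were C3AR1, the C3a receptor (-1.84, edgeR adjusted p = 0.00361), VSIG4, a macrophage receptor for C3 fragments (-1.31, edgeR adjusted p = 0.0117), PLAU, urokinase (-0.45, edgeR adjusted p = 0.0412), and GGCX, which carboxylates the vitamin K-dependent factors. In the 9 other complement components, which include C1QA, C1QB and C1QC, 0 were called by edgeR and 0 had an unadjusted p under 0.05. The C1Q chains, made by macrophages, had log2 changes of 0.18, 0.18 and 0.19.

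F3 was uneven between animals. F3, tissue factor, was 2.84, 2.92, 2.82 and 3.48 CPM in unventilated livers, 2.28, 2.34, 30.7 and 16.8 CPM with surfactant, and 1.51, 2.98, 1.11 and 1.87 CPM with budesonide. Surfactant animals 049 and 051 stood above all other livers, while 007 and 032 lay below the unventilated range. By the fit F3 rose with surfactant (log2 2.11 ± 0.69, edgeR adjusted p = 0.0279) and fell from there with budesonide (log2 -2.80 ± 0.72, edgeR adjusted p = 0.0270).

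With budesonide against surfactant 2 of the 49 were higher and 5 lower in liver, 14.3% beside 11.9% of all genes. C5AR1, the C5a receptor, was 17.5 ± 4.74 CPM with surfactant and 44.5 ± 5.39 CPM with budesonide (log2 1.35 ± 0.21, edgeR adjusted p = 0.00246). MCFD2, which helps export factors V and VIII from the cell, rose by a log2 of 0.97 ± 0.21 (edgeR adjusted p = 0.0138). PLAU was lower (log2 -1.10 ± 0.17, edgeR adjusted p = 0.00262), as was PROZ, protein Z (log2 -1.03 ± 0.25, edgeR adjusted p = 0.0215). PROCR, the protein C receptor, was 9.28, 11.04, 74.5 and 72.3 CPM with surfactant and 3.61, 4.99, 3.43 and 4.89 CPM with budesonide (log2 -3.30 ± 0.61, edgeR adjusted p = 0.00680). As for F3, surfactant animals 049 and 051 were far above 007 and 032, which lay close to the unventilated range of 7.14 to 10.3 CPM. The other genes called lower were F3 and PLAT.

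In PVWM 40 of the pathway genes were tested. With surfactant 1 was called higher and 1 lower, 5% beside 2.05% of all genes. PLAU stood at 24.7 ± 0.840 CPM in unventilated and 10.9 ± 2.76 CPM in surfactant libraries (log2 -1.18 ± 0.15, edgeR adjusted p = 0.00172). PLAT, the tissue plasminogen activator, stood at 70.9 ± 7.11 and 149 ± 65.2 CPM (log2 1.07 ± 0.23, edgeR adjusted p = 0.0318). With budesonide against surfactant 3 of the 40 fell and 0 rose, 7.5% beside 0.978%. They were C5AR2, a second C5a receptor (-2.06 ± 0.33, edgeR adjusted p = 0.0123), PLAT (-1.42 ± 0.23, edgeR adjusted p = 0.0139) and PLAU (-0.73 ± 0.15, edgeR adjusted p = 0.0426). Budesonide against unventilated gave 2 higher, C5AR1 and CD59, and 5 lower, PLAU, C5AR2, C1QC, A2M and C1QB, 17.5% beside 8.06%. Microglial markers summed to 194 to 212 CPM in unventilated, 126 to 183 CPM in surfactant and 69.9 to 86.1 CPM in budesonide PVWM, and the part of these cells in the C1Q and receptor values was not tested.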

How the data were processed

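Per the labels, total RNA from liver and PVWM was poly-A selected and sequenced as paired ends. The whole-number counts per gene were used as the authors deposited them; per the submitters' processing notes Bowtie2, featureCounts and edgeR were used, and for these tools the versions, the settings, the use of strand and the build are not given in the sources used here. Each library is a separate animal within its tissue, and groups, ages and sexes come from the labels.

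The tests were run in edgeR 4.0.16 (R 4.3.3, limma 3.58.1), with DESeq2 1.42.0 as an alternative. For each tissue, genes passing filterByExpr were scaled by TMM and fitted with the 3 groups in 1 robust quasi-likelihood model, with p-values adjusted over all genes tested. The spread between animals, as edgeR's common biological coefficient of variation, was 0.304 (liver) and 0.197 (PVWM). Each SE was taken as the size of the log2 change over the root of its F statistic. The tissue difference used all 24 libraries in 1 fit of 6 groups. By the labels, liver and PVWM libraries with 1 number are from 1 animal. The 11 such pairs, taken as deviations from group means, correlated at 0.0794 to 0.198, against a median of -0.008 for different animals, and the animal block was an alternative fit.

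Alternatives were median-ratio scaling, DESeq2, no filter or a 1 CPM filter, the 2 groups alone, sex or gestational age as a covariate, and leaving out each library. On simulated data for surfactant against unventilated, edgeR recovered 34.3% of 2-fold and 83.3% of 4-fold changes among 16824 liver genes, and 67.2% and 90.9% among 18616 PVWM genes. At 1.5-fold it recovered 1.49% and 22.4%. In each simulation 67, 67 and 66 genes were changed 1.5-, 2- and 4-fold. The same comparison in the data called 6911 liver and 382 PVWM genes. The adjusted p depends on how many genes change, so these shares do not give the recovery in the data.

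The members and gene lists were chosen with earlier results of these data known. Library values are printed for up to 4 called members per role with the smallest adjusted p, plus C3, CFB, C9, MBL2, FGA, FGB, FGG, F2, SERPINC1 and PLG in liver and C3, C1R, C1S and SERPING1 in PVWM (some as ranges). C8A and C7 in PVWM were added after their values were seen. Of the other pathway genes, up to 3 called genes per direction and comparison are named, plus C1QA, C1QB, C1QC and F3, and short lists are named in full. A further listed gene is not reported here. Promoter sequences were not analysed here.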

Additional observations from a re-analysis of the deposited data

Results flagged for a closer look

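Within groups of 4, 12 of 165 gene and group combinations held 1 animal far from the other 3 by Dixon's test, where chance gives about 5%. In unventilated livers, animal 059 was highest for C2 (64.2 CPM, others 24.1 to 30.3) and C4BPA (154 CPM, others 88.5 to 89.4) and lowest for SERPING1 (325 CPM, others 434 to 451). Animal 058 was lowest there for VTN (1770 CPM, others 3740 to 4000), and budesonide animal 048 was highest in liver for C6 (182 CPM, others 82.1 to 89.9).

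In PVWM, surfactant animal 049 was highest for CFB (26.0 CPM, others 1.76 to 4.35), C7 (111 CPM, others 9.46 to 26.8) and PROS1 (42.0 CPM, others 12.1 to 14.7). Budesonide animal 031 was highest for C7 (158 CPM, others 43.7 to 59.6) and FGB (14.5 CPM, others 1.64 to 2.14). Unventilated animal 057 was lowest for MASP2 (21.2 CPM, others 29.9 to 31.0), and surfactant animal 007 was lowest for CFI (2.85 CPM, others 7.99 to 8.96).

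SERPING1 differed between tissues in its change with surfactant, with the liver change higher than the PVWM change by a log2 of 0.99 in the edgeR fit of both tissues.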

How the results depend on the processing

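No called member changed direction in any alternative. In liver the calls held in every alternative for 5 of 16 members with surfactant against unventilated, 4 of 7 with budesonide against surfactant and 8 of 23 with budesonide against unventilated. The share of all called genes that held in every alternative was not computed, so these counts have no background beside them. For budesonide against surfactant, DESeq2 gave 1 higher and 15 lower (3135 genes called in all, against 1994), and the 2 groups alone gave 884 genes in all. Leaving out each library gave 0 to 1 higher and 4 to 12 lower, with the 1 higher, C7, without surfactant animal 049 or 051, beside 5.89 to 16.6% of all genes called in either direction. The gestational age covariate gave 5 higher and 0 lower for surfactant against unventilated (1398 genes against 6911) and 5 higher and 3 lower for budesonide against unventilated (2958 against 7903). Age nearly coincides with ventilation and within each group goes with labelled sex, so the age fit cannot tell these apart. Leaving out each library gave 10 to 13 higher and 2 to 5 lower in the first and 7 to 9 and 12 to 15 in the second. The share of all genes called in these fits also moved, over 32.4 to 47.4% in the first and 39.1 to 49.8% in the second.

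In PVWM, surfactant against unventilated had 0 members higher with the 2 groups alone (174 genes in all, against 382), with the sex covariate (97 genes) and with the age covariate (15 genes). Budesonide against unventilated had 2, 0 and 0 higher in the same 3 settings (668 genes with sex and 346 with age, against 1501). Leaving out each library gave 0 to 1 higher in the first and 1 to 2 in the second. The share of all genes called was then 0.921 to 2.67% and 5.31 to 8.81%. DESeq2 called 822 genes in PVWM for surfactant against unventilated, and 546 for budesonide against surfactant, where the 2 groups alone gave 69 and the sex covariate 80, against 182. The sex fit gave liver animal 060 the sex of its PVWM label and left out PVWM animal 061. Where no cause is given above, the cause was not tested.

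For the tissue difference with surfactant, leaving out each animal gave 1 to 2 members called, C7 being added without animal 049 and C3 without animal 059. The share of all genes called in these fits was 19.4 to 30.9%. With the animal as replicate block, 1 member was called for surfactant against unventilated and 0 for budesonide against surfactant, as without the block, and the genes called in all were 3755 against 5170 and 428 against 683. The share of counts held by the set, counted outside the 10 most abundant genes of each library, was 3.9% in unventilated, 3.02% in surfactant and 2.32% in budesonide livers, since that leaves out fibrinogen where it is among those 10 genes. By effective library size it was 4.41% in unventilated, 10.2% in surfactant and 9.64% in budesonide livers, so that the order of the ventilated groups turned. Low counts limit PVWM, where 23 of 40 members did not pass the filter. Without a filter on low counts 37 were tested and CFP was still the 1 member called against unventilated PVWM in both comparisons.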
